A study of Schizosaccharomyces pombe with 16 samples.

Results

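The comparison described here is that of wild-type fission yeast, Schizosaccharomyces pombe, at 37 and at 26 °C in medium with nitrogen. It was formed from the sample titles: 6 of the 16 arrays of the series carried wild type, nitrogen and either temperature, 3 at each. At each temperature the array of set 1 and the array of set 2 replicate 1 were near copies of each other. Over 4999 probe sets the temperature difference of set 1 and that of set 2 replicate 1 correlated at r = 0.975, and the SD of what separated them was 0.0918 on the log2 scale, against 0.345 between set 1 and replicate 2. Each such pair was averaged and counted as 1 sample, which left 4 samples, 2 at each temperature, of the 12 in the series.

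The strain was L972, a standard laboratory wild type, with no other allele in the labels. All 4 samples came from cultures in EMM2, a synthetic minimal medium with ammonium, and the labels describe growth in log phase at both temperatures. The labels do not say how long the cells spent at 37 °C. The study also grew fcp1-452, a temperature-sensitive mutant of the RNA polymerase II tail phosphatase gene fcp1, in the same 2 conditions (4 samples), and put both strains in EMM2 without nitrogen (4 single arrays). The long description field repeats 1 condition for every array, so groups were taken from titles. Polyadenylated RNA was hybridised to Affymetrix arrays.

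Every value is a log2 ratio whose base is the median of that probe set over the 8 arrays of its set. No expression level is kept, genes cannot be ranked by level, and the markers that define a mating type cannot be checked as present or absent. Differences are 37 minus 26 °C on the log2 scale, so 1 is 2-fold. Errors are SE from limma with n = 2 per group, and adjusted p-values are limma's after Benjamini-Hochberg adjustment over all 4999 probe sets. Nothing in the labels says that replicates were separate cultures, so p-values measure only how these samples spread, and that spread may be technical.

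At elevated temperature fission yeast draws on a pair of regulators. The heat shock factor Hsf1 switches on chaperone genes, whose products refold or hold damaged proteins. The stress-activated MAP kinase Sty1, through the transcription factor Atf1, switches on a common set of stress genes for redox defence, trehalose and glycerol metabolism. Both responses to a sudden heat shock are known to be strong and brief, and cells that grow on at the higher temperature settle into another state.

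Limma called 27 of 4999 probe sets (0.54%), 16 higher (0.32%) and 11 lower (0.22%) at 37 °C. The values at 26 and 37 °C did not overlap for any of the 27, but this held for 35.7% of all probe sets too. Of the 27, 22 were 2-fold or more the same way in each replicate, a size that 79 probe sets reached in all (1.58%), 46 higher (0.92%) and 33 lower (0.66%). In all 1029 probe sets had an unadjusted p under 0.05, and no probe set was 2-fold higher in one replicate and 2-fold lower in the other. The calls rest on the replicate block and on all 4 samples. None was made without the block, where 368 probe sets had an unadjusted p under 0.05. Far fewer than 27 were made when any single wild-type sample was left out. Without either 37 °C sample, not all of those were among the 27. Other settings made more: 296 with all 12 arrays and a set term, 440 after quantile normalization, 605 without either mutant sample at 37 °C and 250 at an adjusted p under 0.10. The fit with 12 arrays counted the near copies as separate arrays and had no replicate block, so its error may be too small. The count thus depends on the setting. The direction of all 27 was kept in each of these fits, but this was no separate check. Leaving out the block or a mutant sample does not change the wild-type estimate, and both replicates of each of the 27 already went the same way. Below, a probe set is described as apart upwards or downwards where both 37 °C samples lay on one side of both 26 °C samples. The pairing of replicates does not enter that count. Calls within a gene list stand beside 0.32% higher and 0.22% lower over all probe sets.

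**Figure D1:**
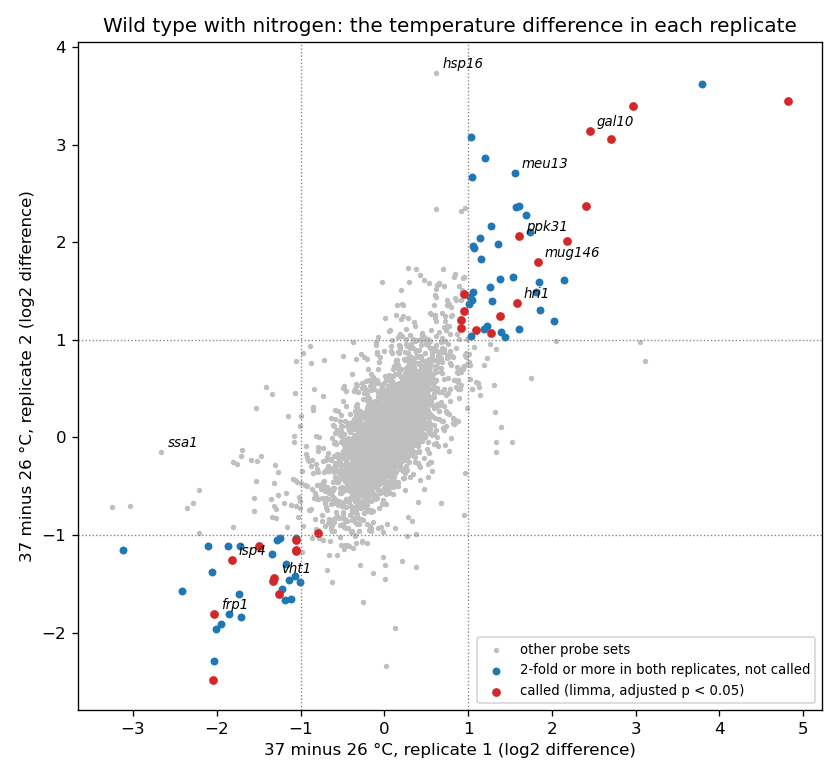
Each point is 1 of 4999 probe sets, with the log2 difference between 37 and 26 °C in replicate 1 on the x axis and in replicate 2 on the y axis, and dotted lines mark 2-fold. The called probe sets lie near the diagonal, while hsp16 (0.62 and 3.74) and ssa1 (-2.67 and -0.15) lie far from it.

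Among genes that rose, the largest named change was in gal10, an enzyme of galactose use. Its values were -0.29 and -0.22 in the 26 °C samples of replicates 1 and 2, and 2.16 and 2.91 in the 37 °C samples. Both 37 °C samples were far above both 26 °C samples, and the rise was 6.93-fold (2.79 ± 0.22, adjusted p = 0.0128). The arrays of replicate 1 gave 2.45 each, in set 1 and in set 2. In the RefSeq gene order gal10 lies next to gal1, the galactokinase gene, with 1 protein-coding gene between gal10 and gal7, the uridylyltransferase gene of the same pathway. The value of gal1 was 0.59 in replicate 1 and 1.35 in replicate 2 (0.97 ± 0.28, adjusted p = 0.14). For gal7 the replicates gave 0.85 and 0.91 (0.88 ± 0.20, adjusted p = 0.105). The alpha-galactosidase gene mel1 stood at 1.54 and 1.65, with a wide error shared from the other groups (1.59 ± 0.51, adjusted p = 0.167). All 4 of these genes were apart upwards, 66.7% of the 6 listed against 20.0% of all probe sets, while limma called gal10 alone. Over the 6 galactose genes listed the median was 0.93, against 0.01 over all probe sets.

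A pair of protein kinase genes rose. For ppk31, which encodes a predicted serine/threonine kinase, the 26 °C values were -1.04 and -0.93 and the 37 °C values 0.56 and 1.13. The groups were well apart, and the rise was 1.83 ± 0.17 (adjusted p = 0.0266). It was the 1 gene called of 22 named ppk, where 0.32% of all probe sets were called higher, and the median of the 22 was 0.08. The kinase gene hri1 moved from -0.74 and -0.89 to 0.85 and 0.49, a rise of 1.48 ± 0.11 (adjusted p = 0.0122). Its product phosphorylates the translation initiation factor eIF2 and so slows protein synthesis under stress. The related kinase gene hri2 stood at -0.73 in replicate 1 and -0.11 in replicate 2 (adjusted p = 0.289). Of the 15 genes listed for eIF2 kinases and translation initiation, hri1 was the 1 called (0.32% of all probe sets were called higher). The median of the 15 was -0.02.

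The other called rises were 3 mug genes and dni2. The mug and meu genes were named because their transcripts go up in meiosis, and many have no described function. Of 91 mug genes 3 rose, where 0.32% of all probe sets did, and 32 were higher in both 37 °C samples than in either 26 °C sample, against 5 lower. That is 35.2% higher and 5.49% lower, beside 20.0% and 15.6% of all probe sets. The median over the mug genes was 0.13. The largest called member was mug146, at 0.00 and -0.33 at 26 °C and at 1.83 and 1.46 at 37 °C (1.82 ± 0.22, adjusted p = 0.0454). The rise of mug126 was 1.21 ± 0.14 (adjusted p = 0.044) and that of mug133 was 1.12 ± 0.13 (adjusted p = 0.0402). Not called were mug125 (1.74 and 2.11, adjusted p = 0.0543), mug14 (1.81 and 1.49, adjusted p = 0.209) and mug37 (1.38 and 1.62, adjusted p = 0.0543).

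None of 18 meu genes was called, with 7 apart upwards (38.9%, against 20.0% of all probe sets), none downwards, and a median of 0.30. In both replicates 9 were higher and 3 lower, among the latter meu7 at -0.87 and -0.53 (adjusted p = 0.0839). The recombination gene meu13 was at -1.02 and -1.43 at 26 °C and at 0.54 and 1.27 at 37 °C. Both replicates were thus higher at 37 °C, by 1.56 and 2.71, but the adjusted p was 0.0951. The gene hop1, of the meiotic chromosome axis, stood at 1.27 and 2.17 (adjusted p = 0.0761), and meu22 at 1.26 and 1.54 (adjusted p = 0.0543). Called among genes of mating was dni2, a membrane protein gene of cell fusion during mating, which went from -0.57 and -0.63 to 0.35 and 0.49 (1.02 ± 0.10, adjusted p = 0.0298). Of 38 probe sets listed for entry into meiosis and the Ste11 pathway, dni2 was the 1 called, 12 were apart upwards (31.6%, against 20.0% of all probe sets) and 3 downwards (7.89%, against 15.6%), and the median was 0.23. The MAP kinase gene spk1 of pheromone signalling, 0.86 and 1.06 in the replicates, had an adjusted p of 0.451.

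Among genes that were over 2-fold higher in both replicates and not called were spn5 and say1. The septin gene spn5, whose product acts in sporulation, stood at 2.14 and 1.62 (1.88 ± 0.31, adjusted p = 0.06). Its lowest value was in replicate 1 at 26 °C (-1.14), and replicate 2 at 26 °C was at 0.25. The gene say1, whose budding yeast counterpart removes acetyl groups from sterols, stood at 1.69 and 2.28 (1.99 ± 0.30, adjusted p = 0.0543).

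**Figure D2:**
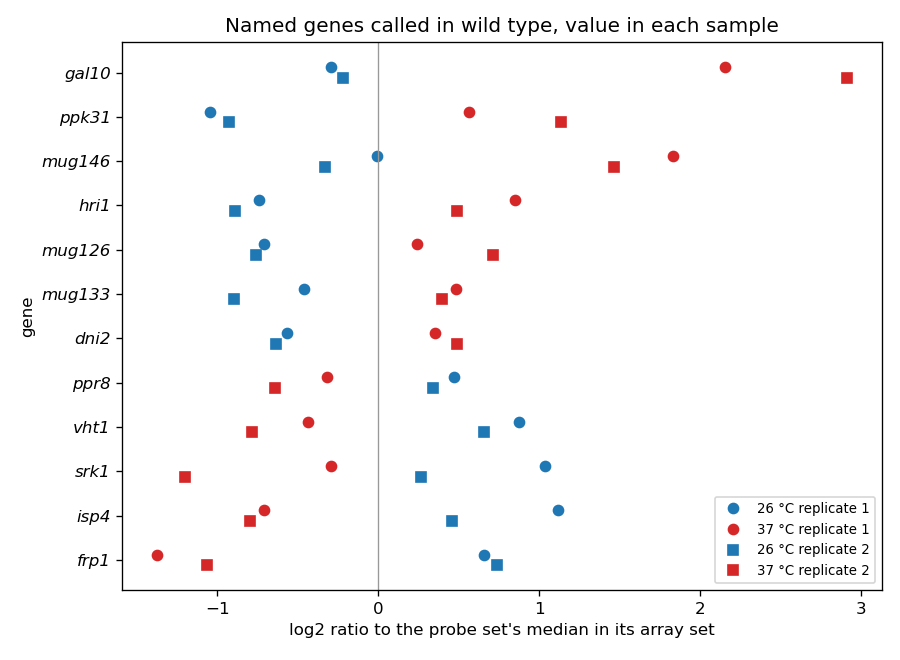
For the 12 named genes that limma called, the x axis gives the log2 ratio in each wild-type sample, blue at 26 °C and red at 37 °C, with circles for replicate 1 and squares for replicate 2. The 7 genes that rose and the 5 that fell each keep the red points on one side of the blue points, from gal10 (2.79) to frp1 (-1.92).

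The named fall with the lowest adjusted p was that of frp1, the ferric reductase gene that frees iron for uptake at the cell surface. It stood at 0.66 and 0.74 at 26 °C and at -1.37 and -1.06 at 37 °C. The groups were far apart, and the fall was 3.78-fold (-1.92 ± 0.10, adjusted p = 0.00636). It was the 1 gene called of 22 for iron and copper uptake, where 0.22% of all probe sets were called lower. The median of the 22 was -0.18, or 0.07 in replicate 1 and -0.19 in replicate 2. Apart upwards were 6 (27.3%, against 20.0% of all probe sets) and downwards 4 (18.2%, against 15.6%). In both replicates 8 were higher and 8 lower, so the list as a whole did not move one way. The other large values in that list differed between replicates: the siderophore transporter gene str3 was at 0.12 and -1.95, and the copper transporter gene ctr4 at -1.81 and -0.25. The gene isu1, of iron-sulfur cluster assembly, had closer values of -0.78 and -1.03 (adjusted p = 0.0798).

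A pair of transporter genes fell. The oligopeptide transporter gene isp4 went from 1.12 and 0.46 to -0.71 and -0.80 (-1.54 ± 0.16, adjusted p = 0.0298). The biotin transporter gene vht1 went from 0.88 and 0.66 to -0.44 and -0.78 (-1.38 ± 0.10, adjusted p = 0.0122). For each, both 37 °C samples lay below both 26 °C samples. These were the 2 called of 27 probe sets for nitrogen sources and nutrient transport, with a median of -0.13 and 8 apart downwards (29.6%, against 15.6% of all probe sets) and 4 upwards (14.8%, against 20.0%). The ammonium transporter gene amt1 was at -0.62 and -1.49 (adjusted p = 0.0933), and the proline permease gene put4 at -0.29 and -1.31 (adjusted p = 0.175).

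A kinase gene of the stress pathway, srk1, fell. Its product binds Sty1 and delays entry into mitosis under stress. The values were 1.04 and 0.27 at 26 °C and -0.30 and -1.20 at 37 °C. Although replicate 1 lay above replicate 2 at both temperatures, the difference was alike in the replicates, and the change was -1.40 ± 0.14 (adjusted p = 0.0298). The transcription factor gene atf1 stood at -1.34 and -0.81 (-1.08 ± 0.17, adjusted p = 0.0548). The Sty1 phosphatase gene pyp1 was at -0.82 and -0.60 (adjusted p = 0.451). Of 28 genes of the stress MAP kinase pathway 1 was called, 6 were apart downwards (21.4%, against 15.6% of all probe sets) and 1 upwards (3.57%, against 20.0%), and 17 were lower in both replicates against 7 higher. Over all probe sets 35.5% were lower and 38.7% higher in both replicates. The median of the pathway was -0.22.

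The remaining called gene, ppr8, encodes a mitochondrial protein of the pentatricopeptide repeat family. It fell by a smaller amount, from 0.47 and 0.34 to -0.32 and -0.64 (-0.88 ± 0.10, adjusted p = 0.0412), the only one of the 27 with a mean change under 2-fold. Beside it, 2-fold differences in both replicates that were not called included the ubiquitin protease gene ubp11 (-1.19 and -1.66, adjusted p = 0.0543) and urg2 (-1.07 and -1.42, adjusted p = 0.372).

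Among the stress genes that Sty1 and Atf1 are known to induce, values went both ways. Of 33 measured, srk1 was the 1 called, 10 were apart downwards (30.3%, against 15.6% of all probe sets) and 4 upwards (12.1%, against 20.0%), and the median was -0.25. The highest members, singled out after their values were seen, were the metallothionein gene zym1, at 0.54 and 1.58 (adjusted p = 0.351), and the glutathione S-transferase gene gst1, at 0.72 and 1.20 (0.96 ± 0.14, adjusted p = 0.0543). The sulfiredoxin gene srx1, which repairs oxidised peroxiredoxin, stood at -1.11 and -1.65 (-1.38 ± 0.21, adjusted p = 0.0543). The dihydroxyacetone kinase gene dak2 was at -1.14 and -1.46 (adjusted p = 0.0543). The stress-induced nuclear envelope gene ish1 was at -1.28 and -1.05, with a wide error (adjusted p = 0.266). The last 3, srx1, dak2 and ish1, were 2-fold or more lower in both replicates. The glycerol-3-phosphate dehydrogenase gene gut2 was too, at -1.87 and -1.12 (adjusted p = 0.139).

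Several other stress genes differed between the replicates. The catalase gene ctt1 was at -1.80 and -0.91, the trehalose synthesis gene tps1 at -1.53 and -0.44, and rds1 at -2.21 and -0.53. For the trehalase gene ntp1 the replicates had opposite signs, -1.53 and 0.30. Their lowest values were in replicate 1 at 37 °C: -1.67 for ctt1, -1.37 for tps1, -1.67 for rds1 and -1.54 for ntp1. For ctt1 (-1.01), tps1 (-0.63) and rds1 (-0.53) the replicate 2 sample at 37 °C also lay below both 26 °C samples. In the other 3 wild-type samples ntp1 lay between -0.06 and 0.24.

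Chaperone genes differed between the replicates too. None of 31 probe sets listed for heat shock and chaperones was called, and the median was -0.03, or -0.07 in replicate 1 and 0.05 in replicate 2. For hsp16, which encodes a small heat shock protein, the values were -0.33 and -0.91 at 26 °C and 0.29 and 2.83 at 37 °C. It was higher at 37 °C in both replicates, but by 0.62 in one and by 3.74 in the other (2.18 ± 0.69, adjusted p = 0.167). That gap of 3.12 was the widest of all named genes. The Hsp70 gene ssa1 had values of 0.12 and 0.02 at 26 °C and of -2.55 and -0.13 at 37 °C, so only the replicate 1 sample at 37 °C was low (-1.41 ± 0.62, adjusted p = 0.278). The DnaJ-type chaperone gene psi1 was low in that sample too (-1.44), as were hsp9 (-1.17), the Hsp70 gene ssa2 (-0.83) and the mitochondrial Hsp60 gene mcp60 (-0.79).

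Counted over the list, the replicate 1 sample at 37 °C was the lowest of the 4 wild-type samples for 16 of the 31 chaperone probe sets (51.6%, against 26.0% of all probe sets). The replicate 2 sample at 37 °C was the highest for 17 (54.8%, against 30.2%). Members with closer replicates were the mitochondrial DnaJ gene mdj1 (-0.42 and -0.33, adjusted p = 0.129) and hsf1 itself (-0.29 and -0.54, adjusted p = 0.289). The gene bip1, for the Hsp70 of the endoplasmic reticulum, was at -0.62 and -0.01 (adjusted p = 0.366). Also listed was sgt1, at 0.15 and 0.65 (adjusted p = 0.310). In fission yeast this gene is not the Hsp90 co-chaperone of that name, so the counts over the list include a gene of another kind. The part that differences in culture or handling between replicates played in these values was not tested. Beyond the chaperones, the widest gaps between replicates among named genes were wtf3 (3.12 and 0.78), str3 and tcb2 (-1.42 and 0.52). The wtf genes are near-identical copies, so the array may not tell them apart.

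**Figure D3:**
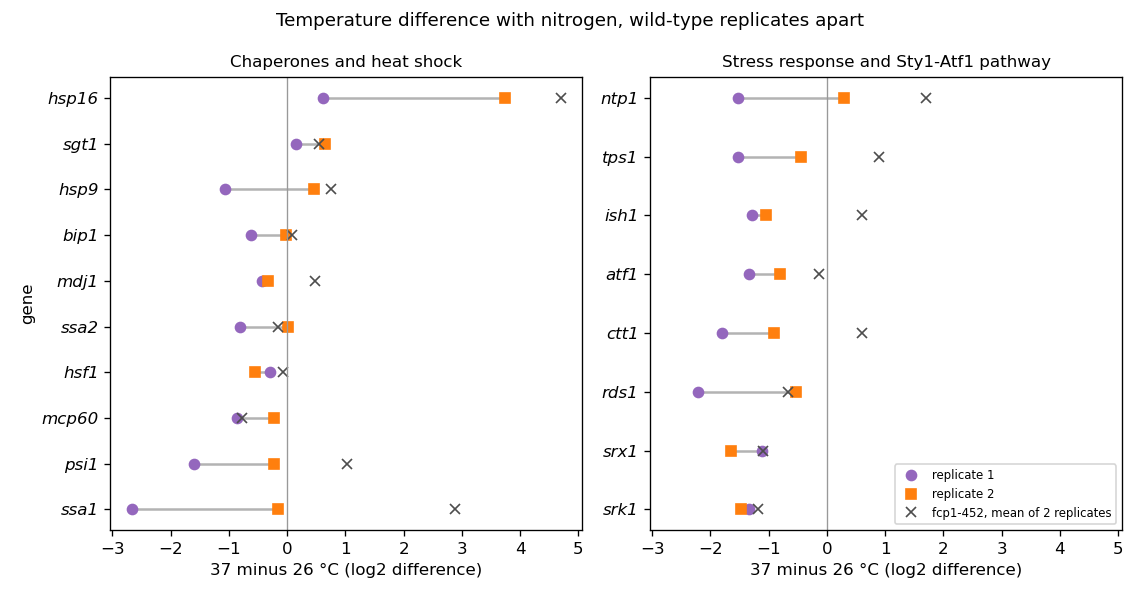
Log2 difference between 37 and 26 °C for 10 genes of the chaperone list (left) and 8 genes of the stress response (right). Circles are wild-type replicate 1, squares wild-type replicate 2 and crosses the mean of fcp1-452. Replicate 1 lies below replicate 2 for ssa1 (-2.67 and -0.15) and ntp1 (-1.53 and 0.30), while srk1 (-1.33 and -1.47) has both close together.

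Among genes of growth and division, none was called in the lists that follow. Core histone genes had a median of -0.39 over 14 probe sets of 11 genes, of which 10 were apart downwards (71.4%, against 15.6% of all probe sets) and none upwards (against 20.0%). The histone H4 gene hhf1 was at -0.70 and -0.71 (adjusted p = 0.153), hta2 of histone H2A at -0.54 and -0.65 (adjusted p = 0.0922) and hht3 of histone H3 at -0.61 and -0.54 (adjusted p = 0.114). Histone genes are near-identical copies, so the probe sets may not separate them. The 57 genes of the G1/S transition and DNA replication were balanced, with 12 apart in each direction (21.1%) and a median of 0.05. The largest mean difference in that list was that of cdt1, at -1.27 and -0.36 (adjusted p = 0.289). Also lower in both replicates were cdc18 (-0.65 and -0.57) and cdt2 (-0.67 and -0.53), whose products load and control the replication machinery. Higher was ssb3 of replication protein A (0.42 and 0.90). For septation, 9 of 29 genes were apart downwards (31.0%) and 3 upwards (10.3%). The mitotic activator gene slp1 was at -1.56 and -0.62, and eng1, the glucanase that splits daughter cells, at -1.02 and -0.61 (adjusted p = 0.0848).

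The tricarboxylic acid cycle had a median of -0.34, with 9 of 13 genes apart downwards (69.2%, against 15.6% of all probe sets) and none upwards (against 20.0%). The replicate 2 sample at 37 °C was the lowest of the 4 for 12 of the 13 (92.3%, against 26.6% of all probe sets). Fumarase fum1 was at -0.60 and -0.96 (adjusted p = 0.0615), and the oxoglutarate dehydrogenase gene kgd2 at -0.46 and -0.44 (adjusted p = 0.0951). In mitochondrial respiration the median was -0.11, and 11 of 39 genes were apart downwards (28.2%) against 3 upwards (7.69%). The cytochrome bc1 gene qcr1 was at -0.44 and -0.86, and coq3, of ubiquinone synthesis, at 0.60 and 0.50. Amino acid biosynthesis had 19 of 44 genes apart downwards (43.2%) and none upwards, and a median of -0.19. The glycine cleavage gene gcv2 was at -0.49 and -0.83 and the serine gene ser2 at -0.34 and -1.09, both with the lower value in replicate 2.

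Ribosomal protein genes had a narrow range, from -0.35 to 0.10 over 120 probe sets, with a median of -0.06. Of these 91 were lower in both replicates and 4 higher, against 35.5% and 38.7% of all probe sets. Apart downwards were 13 (10.8%, against 15.6%) and upwards 1, a count that takes no account of the pairing of replicates. The replicate 2 sample at 26 °C was the highest of the 4 for 107 of the 120, against 1186 of all 4999 probe sets. The largest, rps1401, was at -0.21 and -0.49 (adjusted p = 0.224). The proteasome was also narrow (-0.31 to 0.13, median -0.04, 31 genes), and the tail phosphatase fcp1, at -0.04 and 0.03 in the replicates, did not pass the test (-0.0048 ± 0.12, adjusted p = 0.987). In glucose metabolism the gluconeogenic gene fbp1 was at 0.54 and 1.28 (adjusted p = 0.0818) and the hexose transporter gene ght1 at 1.75 and 0.61 (adjusted p = 0.2). Lower was cgs1 (-0.70 and -0.67, adjusted p = 0.0632). The median was 0.06 over 21 genes of hexose transport and glucose repression (6 higher and 8 lower in both replicates). For 15 genes of glycolysis and gluconeogenesis it was -0.05 (3 higher, 7 lower). The sterol regulator gene sre1 stood at 1.13 and 0.51, and erg1 of ergosterol synthesis at 0.74 and 0.27. Their list of 29 genes had a median of -0.08, with 7 higher and 13 lower in both replicates. No gene in these lists was called.

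The strain is of the minus mating type, whose cells are M cells. The list for M cells (8 probe sets, median 0.30) also held map3, and that for P cells (4 probe sets, median 0.02) also held mam2. These are receptor genes of the other cell type, so both medians mix the types. In the list for M cells 6 were higher in both replicates, map3 (0.11 and -0.04) not among them, and none was called. Of P cell genes map1 was at 0.73 and 0.99 (adjusted p = 0.153) and map2 at -0.23 and -0.36. The M cell gene mam2 was at -0.13 and 0.17.

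**Figure D4:**
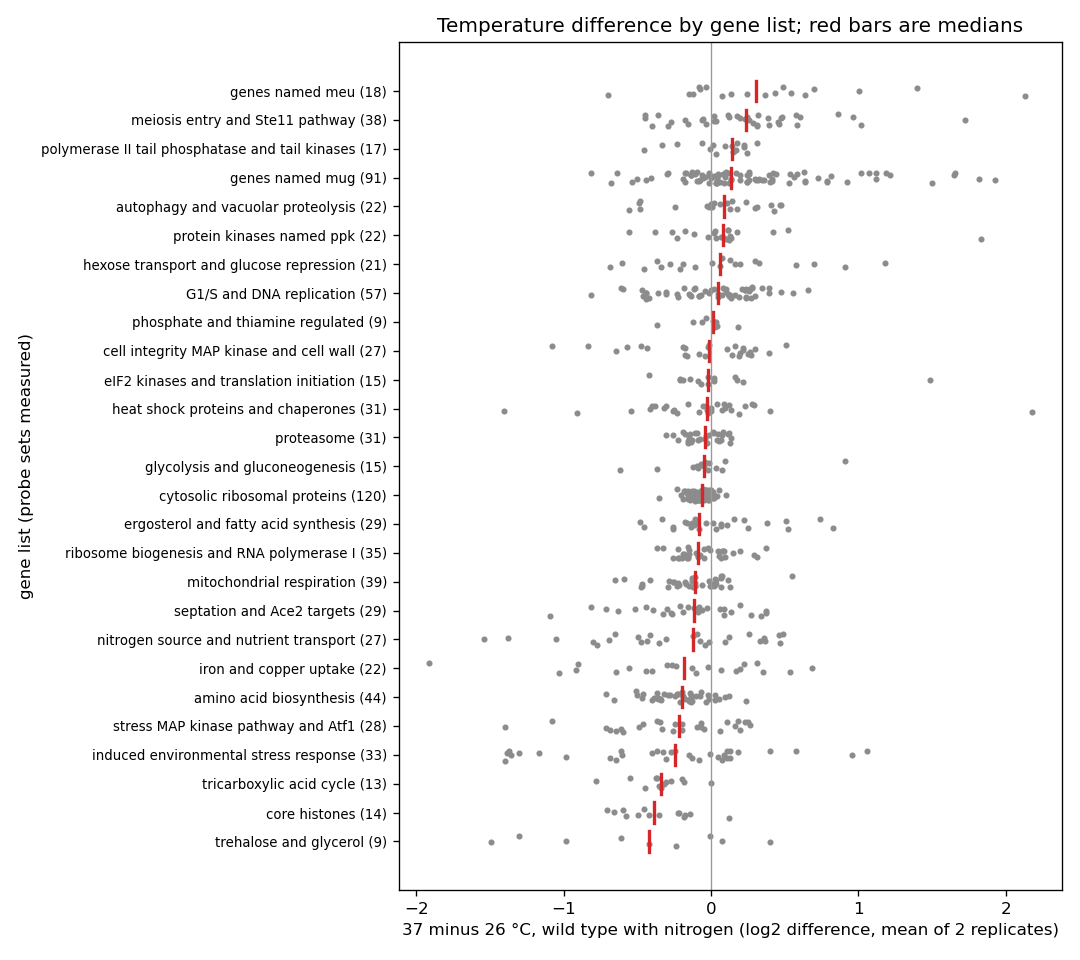
Each grey point is 1 probe set of a gene list, placed on the x axis by its mean log2 difference between 37 and 26 °C in wild type with nitrogen, and red bars are list medians. The medians run from -0.42 for trehalose and glycerol genes to 0.30 for meu genes, for lists with 9 or more probe sets, and most lists straddle 0.

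The called probe sets were next compared with the same temperature difference in fcp1-452. Its values come from other samples, but the error is pooled over both strains, so a probe set with a small error is more readily called in both, and the counts of calls are not independent. Of the 27, 22 were called the same way in the mutant and 3 the opposite way, where 39.9% of all probe sets were called in the mutant in either direction. The values were close for ppk31 (1.83 in wild type and 1.89 in the mutant), hri1 (1.48 and 1.51), mug126 (1.21 and 1.24) and ppr8 (-0.88 and -0.85). For none of these 4 did the strain difference pass the test. Its largest size was 0.06 ± 0.24, for ppk31, where the error leaves room for a difference.

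The difference between the strains was called for 590 of 4999 probe sets (11.8%) and for 8 of the 27. Wild-type values enter both the choice of the 27 and this test, so the 2 shares are not independent. In 2 of the called named genes, gal10 and mug146, the wild type rose and the mutant did not. For gal10 the mutant stood at 0.05 ± 0.22, a strain difference of -2.75 ± 0.30 (adjusted p = 0.0151). For mug146 the mutant fell (-1.05 ± 0.22, adjusted p = 0.0156), and the strain difference was -2.87 ± 0.32 (adjusted p = 0.0151). The septin gene spn5, high in both wild-type replicates, was at -0.44 ± 0.31 in the mutant (strain difference -2.32 ± 0.44, adjusted p = 0.032). The neighbour of gal10, gal1, stood at -2.63 in the mutant (strain difference -3.61 ± 0.39, adjusted p = 0.0151).

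For frp1 and vht1 both strains fell, and the mutant fell further. The mutant values were -3.41 ± 0.10 for frp1 and -2.46 ± 0.10 for vht1, with strain differences of -1.50 ± 0.15 (adjusted p = 0.0147) and -1.09 ± 0.14 (adjusted p = 0.0167). Among chaperones the strains differed by 4.29 ± 0.88 for ssa1 (adjusted p = 0.0388), where the low wild-type sample of replicate 1 entered the value, and by 0.86 ± 0.14 for mdj1 (adjusted p = 0.0259). The 2 mutant replicates of hsp16 averaged 4.70 ± 0.69 against 2.18 in wild type, and their difference did not pass the test (2.52 ± 0.98, adjusted p = 0.146). These strain differences depend on the fit: limma called 7 probe sets without the replicate block, and 0 after quantile normalization between samples, where 892 had an unadjusted p under 0.05. It also called 0 without either wild-type sample at 26 °C, and no named strain difference was called there.

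The same shift in starved wild-type cells was measured with 1 array at each temperature, so it has no replicate check and no test. It shares no array with the comparison above. At 2-fold or more 204 probe sets were higher and 84 lower at 37 °C without nitrogen (5.76%). Of the 16 called rises with nitrogen 12 were higher without it, and of the 11 called falls 6 were lower, while 3 were 2-fold or more higher. Of the 46 probe sets that were 2-fold or more higher in both replicates with nitrogen, 39 were higher without it, and of the 33 that were lower, 27 were lower. Over all probe sets the sign was the same for 53.4%. Without nitrogen gal10 stood at 3.24, ppk31 at 2.70, meu13 at 3.11 and hop1 at 2.31, each above its value with nitrogen. The value of mug14 was 4.10. By contrast hri1 was at -0.16 and dni2 at -0.12 without nitrogen. The genes frp1 and vht1, which fell with nitrogen, were higher at 37 °C without it, by 1.56 and 1.98.

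**Figure D5:**
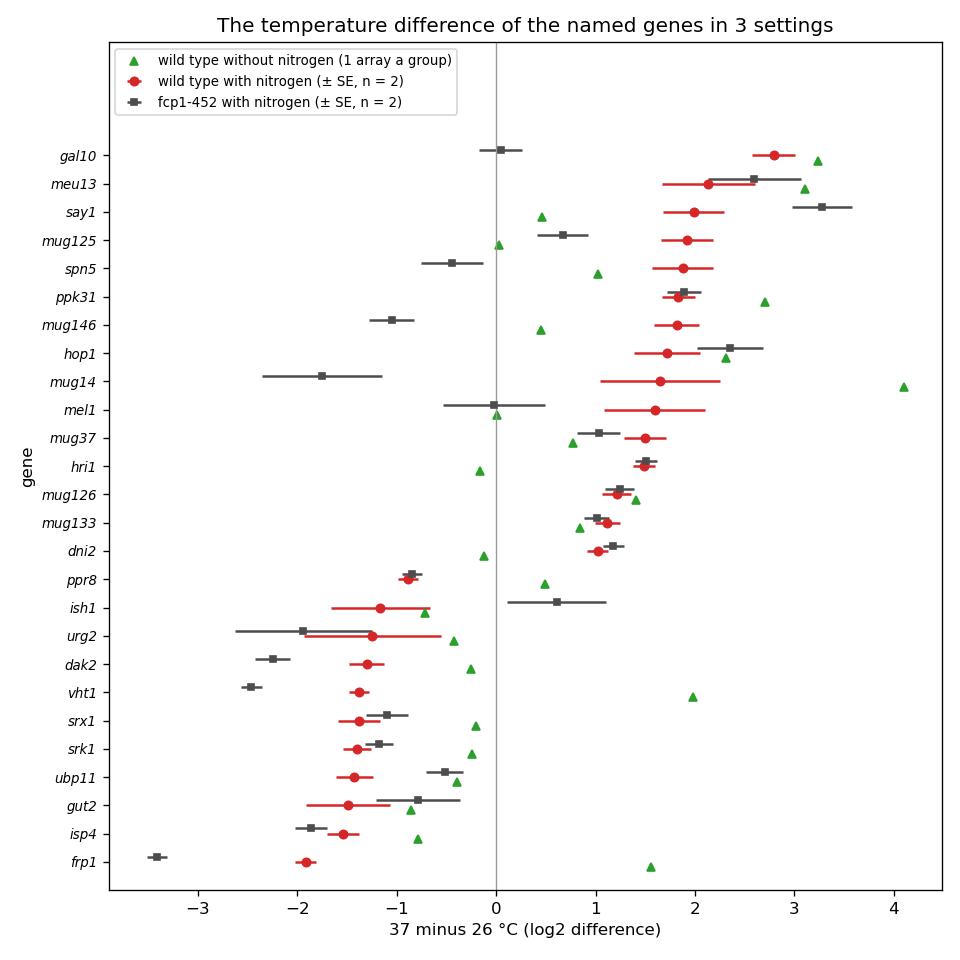
For 26 named genes (the 12 called, and up to 12 in each direction with the largest smaller replicate difference among those 2-fold in both), red circles give the log2 difference between 37 and 26 °C in wild type with nitrogen, grey squares that in fcp1-452 with nitrogen (bars are SE, n = 2 per group) and green triangles that in wild type without nitrogen (1 array a group). For gal10 the squares lie near 0 (0.05) while the circle (2.79) and triangle (3.24) lie together, and for frp1 the triangle (1.56) is on the other side of 0.

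Of the 27 called probe sets 15 had no gene name in the platform annotation used here, 9 higher and 6 lower, among them the largest changes of all. Probe set 1776578_at went from -1.71 and -1.64 to 3.11 and 1.81 (4.14 ± 0.43, adjusted p = 0.0298), and 1780196_at from -1.80 and -2.62 to 1.17 and 0.78 (3.18 ± 0.20, adjusted p = 0.00643). The largest fall was that of 1770944_at, from 1.33 and 0.65 to -0.72 and -1.83 (-2.27 ± 0.14, adjusted p = 0.00643). In the mutant these 3 stood at 3.30, 3.48 and -3.60.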

How the data were processed

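The deposited values are linear ratios of 4999 probe sets on 16 arrays. The submitters' processing notes name RMA without giving a version. Within each set the median of every probe set over the 8 arrays was 1, a step read from the values, since no source used here states it. The lowest value was 0.01. Depth does not apply: the number of arrays limits the precision, and signal over background is unknown. Names came from the platform annotation, updated through RefSeq (assembly ASM294v3, names and gene order only): 2917 probe sets had 1 gene, 20 several and 2062 were not listed. No sequences were used here.

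Ratios were taken to log2. Set 1 was shifted onto set 2 by its mean offset from set 2, taken for every probe set from the 4 duplicate pairs, and each pair was averaged. Duplicates correlated at r = 0.975 to 0.990, against 0.652 to 0.765 for replicate 2. The 8 samples with nitrogen went into limma 3.58.1 under R 4.3.3 (group means and the replicate number as a block, 3 residual degrees of freedom, prior 2.75 degrees of freedom), and called at an adjusted p under 0.05. The pairing came from the data: the difference between replicates 1 and 2 correlated in each of the 6 pairs of groups (r = 0.640 to 0.870). Simulated data were used to check the script. Members, the 30 gene lists and tests were chosen with earlier results of these data known, so lists are described and not tested. Of a list, named are the called members and up to 4 with the largest mean difference (10 for chaperones). Also named are called genes, up to 12 in each direction at 2-fold in both replicates, the 5 with the widest replicate gap, and fcp1 (zym1 and gst1 were added after their values were seen), and up to 8 of these in each direction with a called strain difference. Alternatives were no block, 12 arrays with a set term, set 2 alone, wild type alone, quantile or median scaling, other call rules and leaving out each sample.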

Additional observations from a re-analysis of the deposited data

Results flagged for a closer look

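For 16 of the named genes the temperature difference in fcp1-452 departed from that in wild type by limma's test of the difference itself, with an adjusted p under 0.05. The strain difference (mutant minus wild type, log2) was -3.67 for put4, -3.61 for gal1, -2.87 for mug146, -2.84 for amt1, -2.75 for gal10, -2.32 for spn5 and -2.11 for cdt2. It was -1.72 for ser2, -1.51 for eng1, -1.50 for frp1, -1.23 for gst1 and -1.09 for vht1. It was above 0 for ssa1 (4.29), tps1 (1.87), mdj1 (0.86) and kgd2 (0.61). Not counted among the 16, cdt1 also passed limma's test (-3.24, adjusted p = 0.0239). None of the 16 was called without the replicate block, after quantile normalization or without either wild-type sample at 26 °C.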

How the results depend on the processing

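The direction of all 27 called probe sets was the same in every fit run, which was largely fixed beforehand. The wild-type estimate is the same without the block, with wild type alone or without a mutant sample. Both replicates of each of the 27 also went the same way. With no replicate block limma called 0 in wild type (368 at an unadjusted p under 0.05) and 7 strain differences. Keeping all 12 arrays with a set term, with near copies counted as separate arrays, gave 296 (24 of the 27 among them) and 933. Quantile normalization gave 440 (all 27 among them) and 0 (892 at an unadjusted p under 0.05). Wild type fitted alone gave 46, of which 20 were shared. An adjusted p under 0.10 gave 250, and 2-fold in both replicates 79. Leaving out 1 sample gave 1 to 605 in wild type and 0 to 1717 strain differences (1029 and 1136 at an unadjusted p under 0.05 in the fits with 0). The wild-type count was 3 without either replicate at 26 °C, 4 without replicate 1 and 1 without replicate 2 at 37 °C, 8 without either mutant sample at 26 °C and 605 without either at 37 °C. In these fits a group left with 1 sample is assumed to vary like the others. Without either wild-type sample at 37 °C, not all calls were among the 27. Uncalled values that changed sign included fcp1 (0.0015 with set 2 alone, -0.0931 to 0.0835 when 1 sample was left out). Also among them were hsp9 (-1.03 to 0.42), ntp1 (-1.49 to 0.26) and tcb2 (-1.11 to 0.21). Under quantile normalization the medians of trehalose and glycerol genes (-0.57), amino acid biosynthesis (-0.32), respiration (-0.19), core histones (-0.48) and ribosomal proteins (-0.13) moved down. So did those of the proteasome (-0.07), glycolysis (-0.10), ribosome biogenesis (-0.15) and G1/S genes (-0.01, from above 0). The list for P cells, which mixed the cell types, moved down too (-0.05). Median centring moved respiration to -0.13 and histones to -0.40. The cause of these shifts was not tested. The promoter motif search was not run.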
